A study of Sus scrofa with 6 samples.

Results

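Cytosolic ribosomal protein genes encode the protein part of the ribosomes that translate mRNA in the cytoplasm. The genes described here are those of the pig gene table whose symbol is RPL or RPS followed by a number and, in some, by a letter A, X, Y or L, together with the stalk genes RPLP and with RPSA, at 10 counts or more over the 6 libraries. The kinases RPS6K were left out. Of 56 symbols of this form, 27 had an identifier among the 25149 genes counted, and all 27 had at least 10 counts and passed the filter on low counts. They comprise 15 genes of the small subunit and 12 of the large subunit. The other symbols, among them RPLP0, RPSA, RPL10 and RPL7, are not analysed here.

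RNA was sequenced from neonatal pig Sertoli cells (NPSC), the nurse cells of the seminiferous tubule, to learn how they respond to the complement system of human serum. Baseline NPSC were 3 plates of cells kept in medium, and complement NPSC were 3 plates exposed for 90 min to pooled human serum with its complement preserved, mixed 1:1 with DMEM and fetal bovine serum. Both groups were wild type (labelled WT) and had been cultured overnight in DMEM with fetal bovine serum after isolation from testes of Duroc-Landrace piglets 3 to 5 days old. Testes were collected by litter, the labels do not say which litter a plate came from, and p-values therefore measure the spread between these plates, which may be technical. The cells are a primary preparation and not a line, and no group of heat-inactivated serum is among the libraries, so that serum and active complement cannot be told apart.

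A ribosome is built of a small subunit, which reads the mRNA, and a large subunit, which joins the amino acids. Its proteins are needed in matched amounts and come from short, abundant mRNAs, most of which begin with a terminal oligopyrimidine (TOP) tract through which the kinase mTOR and the RNA-binding protein LARP1 control their translation. When ribosome assembly is disturbed, free RPL5 and RPL11 bind the ubiquitin ligase MDM2.

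Counts on genes came to between 6796183 and 8371923 in the baseline libraries and between 3641518 and 6403606 in the complement libraries, so that every complement library was the shallower. Of 12 Sertoli cell markers 8 were matched, and all 8 had counts, with CLU, a secreted chaperone, at a mean of 4694 CPM on the baseline plates (CPM, counts scaled to the library size after TMM normalization). Olfactory receptor genes, which serve smell in the nose, had a density of 2.15, 1.20 and 1.18 CPM per kb of exon, here by library totals, on the baseline plates and of 4.01, 4.43 and 1.51 on the complement plates. Complement replicates 1 and 2 stood apart from the other 4 libraries by this density, and results are therefore also given without them.

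On the baseline plates the ribosomal protein genes spanned a wide range of levels, which are compared between genes per length, as CPM per kb of exon. RPLP1, an acidic protein of the stalk that recruits translation factors to the large subunit, had the highest level, with 959, 1187 and 1491 CPM per kb, and ranked 36th of the 17512 genes tested. RPS12, a small-subunit protein, had 782, 1139 and 1337 CPM per kb. Both genes overlapped in range, so that their order is within the spread between plates. RPL5, which forms a particle with RPL11 and 5S rRNA, followed with a mean of 804 CPM per kb. RPL4, a loop of which lines the exit tunnel of the nascent chain, had a mean of 610 CPM per kb. RPLP2, the partner of RPLP1 in the stalk, had a mean of 545 CPM per kb.

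From RPLP1 down to RPS28, at 86.4 CPM per kb, each gene overlapped its neighbour in the order. RPS23, a protein of the decoding centre, lay in the upper part at a mean of 543 CPM per kb. RPL11 had 356 CPM per kb, below RPL5. RPS3, which lines the entry channel of the mRNA and is also known as a partner of the NF-κB subunit p65, had 229 CPM per kb. Over the whole order 22 of 26 neighbouring pairs overlapped, and the 4 gaps all lay at its lower end.

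Those gaps set apart 4 genes that encode paralogs of standard ribosomal proteins, RPL26L1, RPL7L1, RPS27L and RPL10L. Their baseline means were 39.4, 16.7, 10.5 and 3.54 CPM per kb respectively. The standard copies RPL26, RPL7, RPS27 and RPL10 are not analysed here, so that no ratio of a paralog to its standard copy can be given. RPL7L1 and RPS27L also had the longest annotated exons, 5210 bp and 4868 bp, against 252 bp for RPS21, the shortest, and a level per kb depends on that annotation.

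RPL10L, a copy of RPL10 without introns known for its role in male germ cells, was at the edge of detection. It lies on chromosome 1 from 196774308 to 196774952 as 1 exon on the minus strand, in the unnamed build of the files. The libraries held 10, 23 and 14 counts on it on the baseline plates and 11, 11 and 6 on the complement plates. Olfactory receptor counts are taken here as background, an assumption that was not tested. Their density times the exon length of RPL10L gives an expected background of 9.43, 5.55 and 6.39 counts on the baseline plates. On the complement plates it gives 10.2, 10.4 and 6.23 counts. The background thus equalled 45.5% of RPL10L counts on the baseline plates and 95.8% on the complement plates, where the gene was not detectable above it. The same share was 15.1% and 37.2% for RPS27L, 9.43% and 19.6% for RPL7L1 and 3.97% and 8.87% for RPL26L1. It was at most 1.80% on the baseline plates and 4.56% on the complement plates for the other 23 genes, with RPS28 the highest of them.

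**Figure D1:**
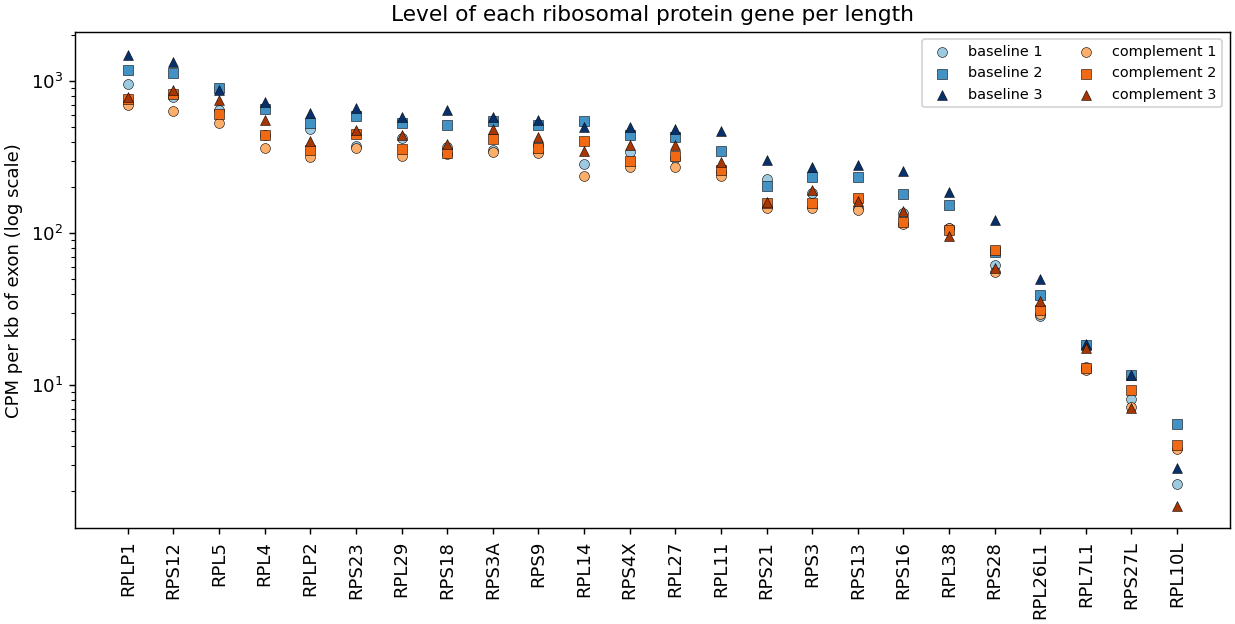
Level of 24 of the 27 ribosomal protein genes as CPM per kb of exon, on a log scale, with 1 point per library, blue for baseline and orange for complement NPSC, and genes in the order of their baseline mean. The order runs from RPLP1 at a mean of 1212 to RPL10L at 3.54 CPM per kb, with gaps between neighbours only below RPS28.

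With complement exposure none of the 27 genes passed the threshold, an adjusted p under 0.05 in edgeR's quasi-likelihood test over all 17512 genes, of which 0.103% passed in either direction. The log2 fold change of complement over baseline NPSC lay below 0 for all 27 genes, from −0.70 for RPLP1 to −0.18 for RPL10L, with a median of −0.44. Over all genes tested the median was 0.02, and 7.57% of all genes lay below the median of the ribosomal protein genes. At an unadjusted p under 0.05, 9 of the 27 were lower and 0 were higher on the complement plates, where 4.28% of all genes tested were lower at that p. The DESeq2 Wald test also called 0 of the 27, against 0.0915% of all genes called lower, and 14 were lower at an unadjusted p under 0.05, against 4.42% of all genes. In bulk RNA, fewer cells of a type and less RNA per cell cannot be told apart.

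The summed level of the 27 genes was 6608, 9079 and 10303 CPM on the baseline plates and 5476, 6334 and 7199 CPM on the complement plates. The groups overlapped, since baseline replicate 1 lay below complement replicate 3. As a share of all counts, which needs no scaling factor, the genes held 0.671%, 0.819% and 0.934% on the baseline plates and 0.627%, 0.729% and 0.647% on the complement plates. On this scale too baseline replicate 1 lay within the complement range. The means of the sums were 8663 and 6336 CPM, a log2 ratio of −0.45.

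The libraries of lower ribosomal protein sums were in part those with more olfactory receptor counts. Among the baseline plates, replicate 1 had the lowest sum and the highest olfactory receptor density, 2.15. Among the complement plates, replicate 3 had the highest sum and the lowest density, 1.51, whereas replicate 1 had the lowest sum at a density of 4.01, below that of replicate 2. The part of this density in the sums was not tested beyond the fits with it that follow.

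**Figure D2:**
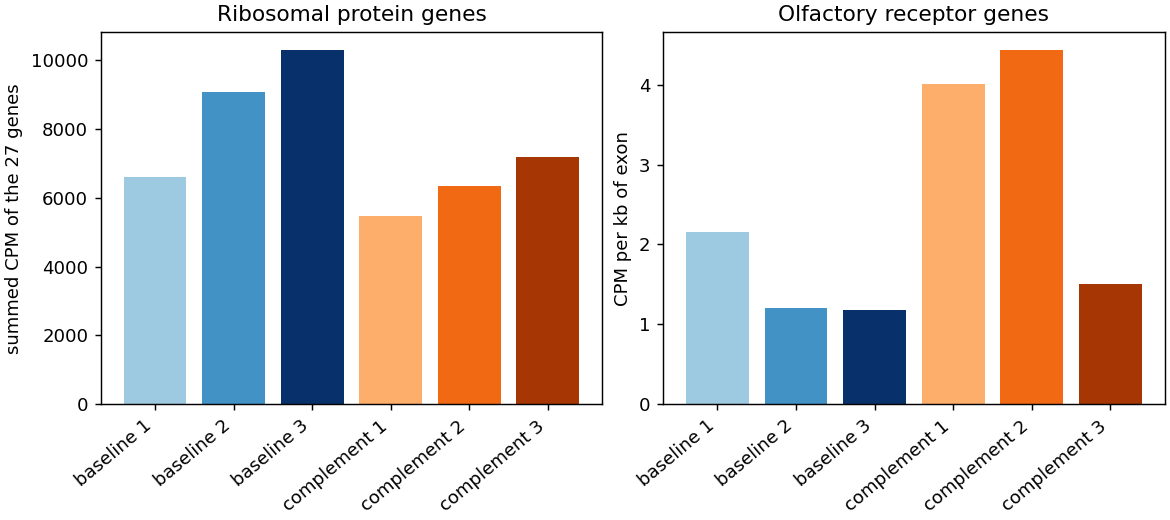
Left, summed CPM of the 27 ribosomal protein genes in each of the 6 libraries, and right, count density of olfactory receptor genes (CPM by library totals, per kb of exon), both as bars from 0, 1 library per bar. The ribosomal sums range from 6608 to 10303 CPM in baseline and from 5476 to 7199 CPM on the complement plates, and the density is highest in complement replicates 1 and 2.

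The order of the libraries was shared by most genes. Baseline replicate 3 had the highest CPM for 23 genes and baseline replicate 2 for the remaining 4. Complement replicate 1 had the lowest CPM for 22 genes and lay below all baseline libraries for 24. Complement replicate 2 lay below all baseline libraries for 15 genes and complement replicate 3 for 9. The spread between plates was wider on the baseline plates for 25 of the 27 genes, with a median coefficient of variation of 24.6% against 13.6% on the complement plates. The 2 exceptions were RPL5 and RPL7L1, with 17.4% and 18.2% in baseline and 17.8% and 19.6% on the complement plates.

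**Figure D3:**
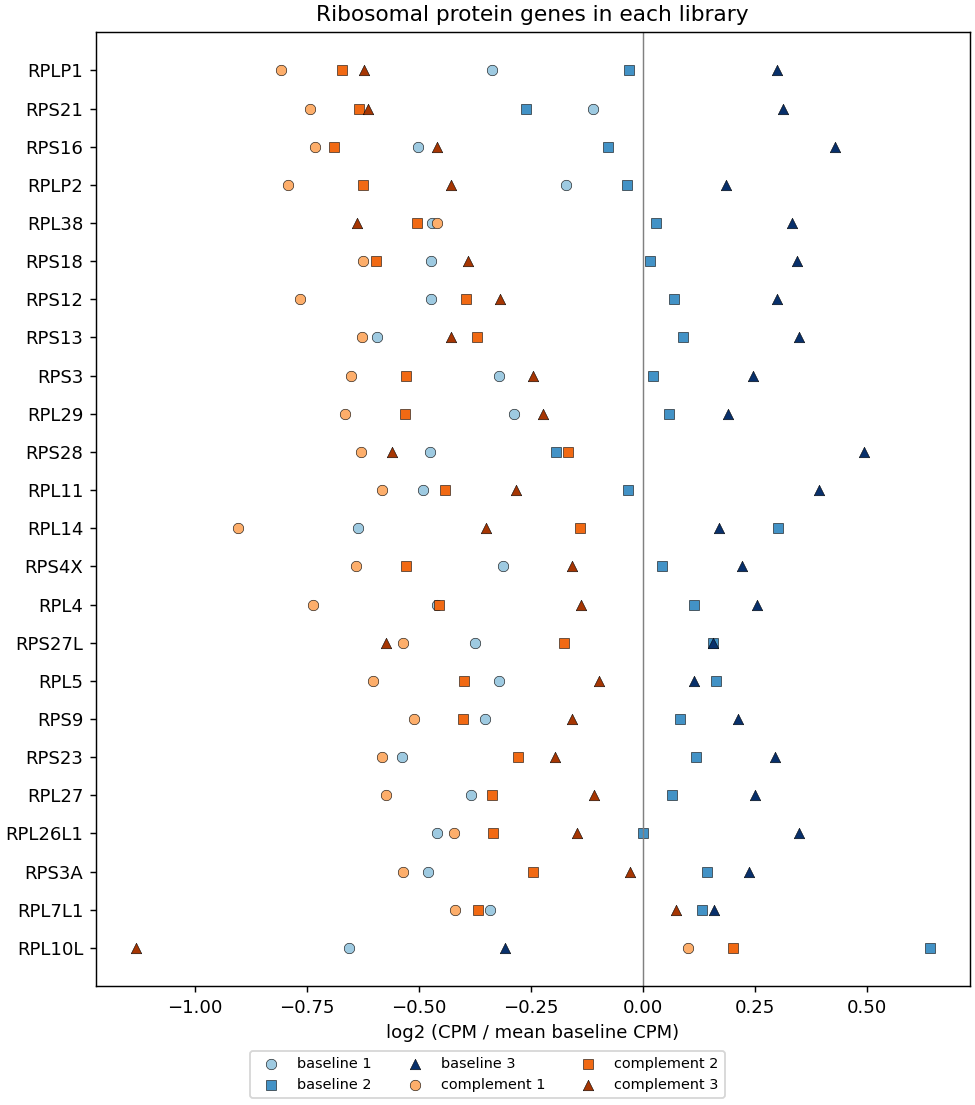
CPM of 24 of the 27 ribosomal protein genes in each library, as log2 of its ratio to the mean of the 3 baseline libraries, with genes in the order of their fold change and 1 point per library. Baseline replicate 3 lies farthest right and complement replicate 1 farthest left for most genes, and the groups are apart for RPLP1, RPS21 and RPLP2.

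For 5 genes, among them RPLP1, RPS21 and RPLP2, all 3 complement libraries lay below all 3 baseline libraries, and for 0 genes they lay above. Of all genes tested, 8.14% lay apart in this way with complement NPSC lower. Without baseline replicate 1 this held for 25 genes, against 20.3% of all genes. After subtraction of the expected background it held for 1, against 8.30%. For a single gene, 3 plates against 3 cannot give an exact two-sided permutation p below 0.1.

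Both genes of the large-subunit stalk that were counted, RPLP1 and RPLP2, were among these 5. RPLP1 (chromosome 1, 185385027 to 185387204, 4 exons) had 506, 626 and 787 CPM on the baseline plates and 366, 401 and 416 CPM on the complement plates. Its highest complement library thus lay under its lowest baseline library, and its mean CPM was 38.4% lower. The log2 fold change was −0.70 (SE 0.26), with an adjusted p of 0.282 in edgeR's quasi-likelihood test. RPLP2 (chromosome 2, 164439 to 166560, 5 exons) had 309.5, 340 and 396 CPM on the baseline plates and 201, 226 and 259 CPM on the complement plates. RPLP2 thus showed a log2 fold change of −0.61 (SE 0.23), at an adjusted p of 0.283 in the same edgeR test. The ratio of RPLP1 to RPLP2 counts in a library, which needs no scaling, was 1.64, 1.84 and 1.99 on the baseline plates and 1.82, 1.78 and 1.61 on the complement plates, with the groups overlapping.

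The other genes of the 5 belong to the small subunit. RPS21 (chromosome 17, 69172955 to 69173861, 5 exons) had 56.8, 51.2 and 76.3 CPM on the baseline plates and 36.7, 39.6 and 40.1 CPM on the complement plates. It had the smallest adjusted p of the 27 genes, 0.267 in edgeR's quasi-likelihood test, at a log2 fold change of −0.66 (SE 0.20). Its lowest baseline library, replicate 2, lay above its highest complement library, replicate 3.

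Outside these 5 genes the groups overlapped. RPS16, whose tail reaches the peptidyl tRNA, had 85.1, 114 and 162 CPM on the baseline plates and 72.6, 74.7 and 87.5 CPM on the complement plates, a log2 fold change of −0.62 (SE 0.23). Only complement replicate 3 reached above its lowest baseline library. RPS3 had 108, 137 and 160 CPM on the baseline plates and 85.7, 93.3 and 114 CPM on the complement plates, a log2 fold change of −0.47 (SE 0.21). The same single library, complement replicate 3, made the overlap.

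RPS12, the small-subunit gene with the highest level, had 386, 563 and 660 CPM on the baseline plates and 315, 408 and 430 CPM on the complement plates. Its baseline replicate 1 lay below complement replicates 2 and 3, and the log2 fold change was −0.48 (SE 0.27). RPS28 had 25.2, 30.7 and 49.4 CPM on the baseline plates and 22.7, 31.3 and 23.8 CPM on the complement plates. Here baseline replicate 3 stood above the other 5 libraries, which lay between 22.7 and 31.3 CPM. RPS23 had a log2 fold change of −0.34 (SE 0.26). RPS3A, a protein of the small subunit's platform, had 432, 665 and 710 CPM on the baseline plates and 416, 508 and 590 CPM on the complement plates. At −0.26 (SE 0.28) its log2 fold change was among the 3 nearest to 0.

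In the 5S particle, RPL5 (chromosome 4, 135982737 to 135990562, 8 exons) had 646, 904 and 873 CPM on the baseline plates and 531, 612 and 754 CPM on the complement plates. RPL11 (chromosome 6, 75499813 to 75504144, 6 exons) had 191, 262 and 352 CPM on the baseline plates and 179, 197 and 220 CPM on the complement plates. The groups overlapped for both, with log2 fold changes of −0.35 (SE 0.28) and −0.43 (SE 0.25). The ratio of RPL5 to RPL11 counts was 3.39, 3.45 and 2.48 on the baseline plates and 2.97, 3.10 and 3.42 on the complement plates, with no shift beyond the spread between plates. MDM2, the partner of this particle, had a log2 fold change of −0.12 and did not pass the threshold.

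RPL4 had 632, 940 and 1036 CPM on the baseline plates and 521, 634 and 790 CPM on the complement plates. The groups overlapped, at a log2 fold change of −0.42 (SE 0.30). RPL27 had a log2 fold change of −0.33 (SE 0.24). The 7 genes not named by rule, RPL14, RPL29, RPL38, RPS4X, RPS9, RPS13 and RPS18, had log2 fold changes between −0.53 and −0.35, and for all 7 the groups overlapped.

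Of the 4 paralogs, RPL26L1, RPL7L1 and RPL10L were among the 4 genes with fold changes nearest to 0. RPS27L had 39.3, 56.8 and 56.8 CPM on the baseline plates and 35.2, 45.1 and 34.2 CPM on the complement plates, a log2 fold change of −0.42 (SE 0.21). RPL26L1 had 23.6, 32.5 and 41.4 CPM on the baseline plates and 24.3, 25.8 and 29.4 CPM on the complement plates, a log2 fold change of −0.30 (SE 0.23). Complement NPSC thus lay within the baseline range for RPL26L1, whereas complement replicates 1 and 3 lay below it for RPS27L. RPL7L1 had 68.9, 95.5 and 97.2 CPM on the baseline plates and 65.2, 67.5 and 91.7 CPM on the complement plates, a log2 fold change of −0.22 (SE 0.21). RPL10L, at its few counts, had a log2 fold change of −0.18 (SE 0.56). Over the 27 genes the log2 fold change went with log2 exon length at a Pearson's r of 0.354 and a Spearman's rho of 0.368. Without RPL10L these were 0.425 and 0.400. With log2 baseline level per kb they were −0.455 and −0.237 over the 27 genes, and −0.295 and −0.146 without RPL10L. These genes share the same 6 libraries and are not independent replicates.

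By subunit, the 15 small-subunit genes had a median log2 fold change of −0.47 and the 12 large-subunit genes one of −0.43. At an unadjusted p under 0.05, 6 of the 15 and 3 of the 12 were lower, against 4.28% of all genes. The summed CPM of the small-subunit genes was 3283, 4515 and 5277 in baseline and 2809, 3206 and 3585 on the complement plates. That of the large-subunit genes was 3325, 4564 and 5026 in baseline and 2667, 3128 and 3614 on the complement plates. In both subunits baseline replicate 1 lay below complement replicate 3, so that the groups overlapped.

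Ratios of counts within a library compare genes of the list without any scaling. RPLP1 over RPS3A was 1.17, 0.942 and 1.11 on the baseline plates and 0.880, 0.790 and 0.704 on the complement plates, without overlap. The pair was chosen because these genes had the lowest and one of the highest fold changes, and the gap is therefore a description without a test. With the same RPS3A as the divisor, the groups overlapped for RPS21 and for RPS16. RPS21 over RPS3A was 0.132, 0.0770 and 0.107 on the baseline plates and 0.0884, 0.0779 and 0.0680 on the complement plates. RPS16 over RPS3A was 0.197, 0.171 and 0.228 on the baseline plates and 0.175, 0.147 and 0.148 on the complement plates. RPL4 over RPL5 was 0.978, 1.04 and 1.19 on the baseline plates and 0.981, 1.04 and 1.05 on the complement plates, which overlap. RPL14 over RPL29, picked after its values were seen, differed more between plates than between groups, with 0.423, 0.637 and 0.532 on the baseline plates and 0.456, 0.706 and 0.493 on the complement plates. In both groups replicate 2 had the highest value of that ratio.

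The median fold change was nearer 0 in the fits that took account of the olfactory receptor counts. After an expected background of exon length times olfactory receptor density was subtracted from every gene, 26 ribosomal protein genes were tested, their median log2 fold change was −0.19, and 25 lay below 0. None was called, where 0.00663% of all genes were called lower, and 3, RPLP1, RPLP2 and RPS27L, were lower at an unadjusted p under 0.05, against 3.56% of all genes. The subtracted background was 5.47% to 9.95% of all counts in baseline and 6.98% to 20.5% in complement libraries. Outside the paralogs it was at most 1.80% of a gene's counts in baseline and 4.56% in complement NPSC, the shares of RPS28. Subtraction thus changed the library sizes, against which all genes were scaled, more than the counts of those genes. With the log2 density as a covariate, the median was −0.15, and 21 of 27 lay below 0. The density was highest in complement replicates 1 and 2, at 4.01 and 4.43, so that this fit cannot fully separate it from exposure. Again none was called, where 0.0171% of all genes were called lower, and RPLP1, RPS21 and RPLP2 were lower at an unadjusted p under 0.05, against 2.48% of all genes.

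The stalk genes, RPS21 and RPS27L had fold changes below −0.3 in both of these fits. After subtraction the groups were apart for RPLP2 and overlapped for RPLP1, RPS21 and RPS27L. RPLP1 had −0.41 (SE 0.18) after subtraction and −0.49 (SE 0.22) with the covariate. RPS21 had −0.40 (SE 0.20) and −0.57 (SE 0.22), and RPLP2 had −0.34 (SE 0.14) and −0.39 (SE 0.17). RPS27L, with a larger share of background counts, moved away from 0 on subtraction, to −0.59 (SE 0.25), and had −0.38 (SE 0.26) with the covariate. RPS3A had 0.02 after subtraction and 0.14 with the covariate, above 0 in both.

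**Figure D4:**
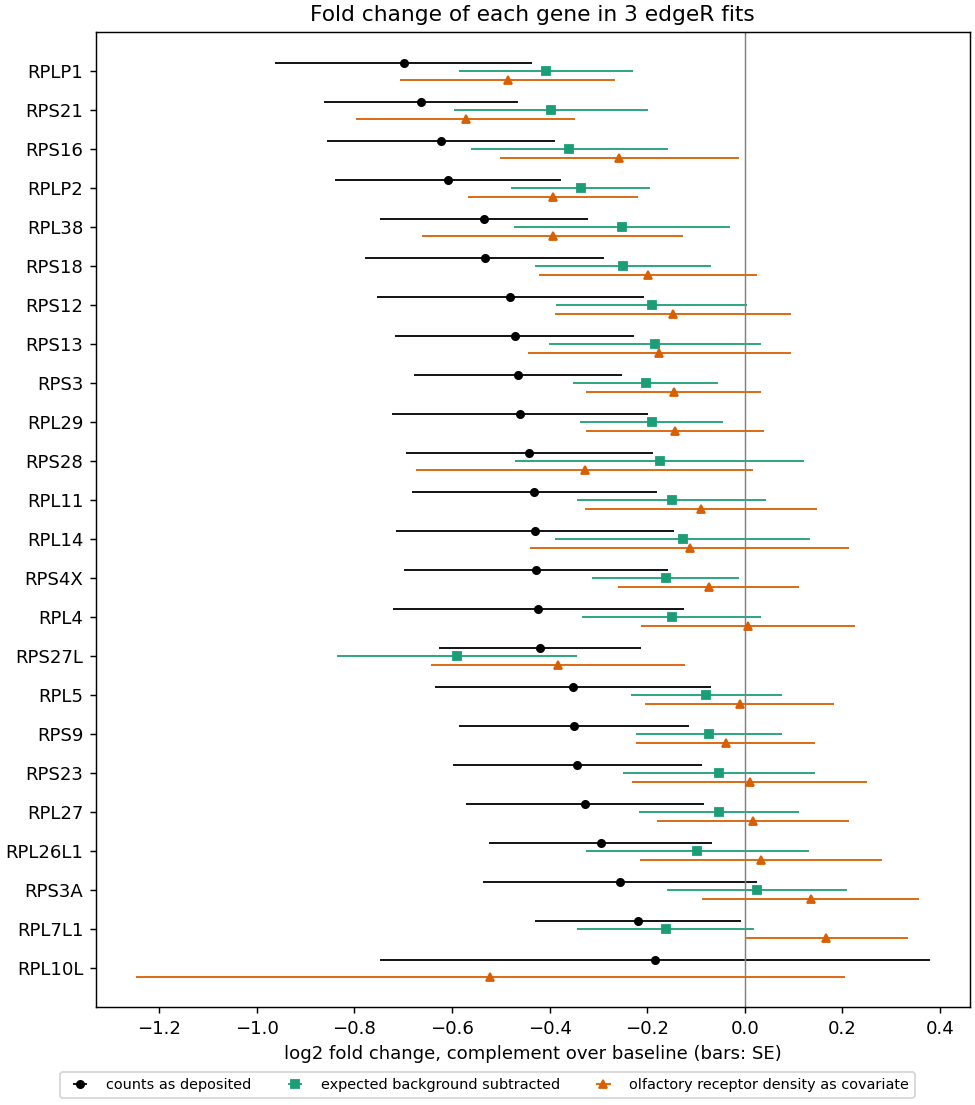
Log2 fold change of complement over baseline NPSC for 24 of the 27 ribosomal protein genes in 3 edgeR fits, with SE as bars: the counts as deposited (black circles), expected background subtracted (green squares, RPL10L not tested) and olfactory receptor density as a covariate (orange triangles). The medians over all ribosomal protein genes tested are −0.44, −0.19 and −0.15, and RPLP1, RPS21, RPLP2 and RPS27L lie below −0.3 in each fit.

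Single libraries also decided part of these values. Without complement replicate 3, RPS21 and RPLP2 were lower at adjusted p of 0.0495 and 0.0411 in edgeR's quasi-likelihood test, where 3.80% of all genes were called lower. Without complement replicates 1 and 2, the libraries with the highest olfactory receptor density, the median was −0.37, 0 genes were called, and RPS21 was lower at an unadjusted p under 0.05, against 1.35% of all genes, in a fit that assumes the lone complement library to vary like the baseline group. Without baseline replicate 1 the median was −0.64 and 0 genes were called, where 0.313% of all genes were called lower. Without baseline replicate 3 the median was −0.32 and again 0 were called, where 0.0109% of all genes were. With the replicate number of the titles as a block, 3.68% of all genes were called lower, and the values of the ribosomal protein genes in that fit stand among the alternatives in the closing section.

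Genes that act with the ribosome were taken as lists for comparison, all from the same fit and scale, and none of their genes passed the threshold. Of 44 mitochondrial ribosomal protein genes, which build the separate ribosome of that organelle, 42 were tested, 41 lay below 0 and the median log2 fold change was −0.34. In this list 11 were lower at an unadjusted p under 0.05, against 4.28% of all genes, and for 14 complement NPSC lay below all baseline libraries, against 8.14% of all genes. MRPL54 was the exception above 0, at 0.26, with all complement libraries above the baseline ones. The genes with the most counts, MRPL17, MRPL28 and MRPL38, had log2 fold changes of −0.43, −0.55 and −0.35. After subtraction of background the median of this list was −0.29, lower than the −0.19 of the cytosolic genes, and with the covariate it was −0.13.

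Ribosomal protein genes with symbols of another form lay within the range of the 27 genes. FAU, which encodes RPS30 fused to a ubiquitin-like protein, had −0.38, and RPL36AL had −0.42, with overlapping groups. The median of both, −0.40, was −0.29 after subtraction and −0.11 with the covariate. Elongation factors and other genes with TOP mRNAs had a median of −0.31 over 12 genes tested, 11 of them below 0 and none with groups apart. Among them VIM, EEF2 and PABPC1 had log2 fold changes of −0.39, −0.42 and −0.20. Their median was −0.04 after subtraction and 0.15 with the covariate.

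Factors that assemble ribosomes had a median of −0.20 over 22 genes tested, with NPM1, NCL and UTP20 at −0.18, −0.19 and −0.29. Their median was −0.016 after subtraction and turned above 0, to 0.10, with the covariate. In that list WDR43, a factor of the early small-subunit precursor, lay above all baseline libraries on the complement plates, at a log2 fold change of 0.68 and an adjusted p of 0.271 in edgeR's quasi-likelihood test, and PPAN lay below them at −0.30. Both were chosen after their values were seen. RNA polymerase I factors, which make rRNA, had a median of −0.17 over 10 genes, with POLR1A, POLR1B and POLR1C at −0.32, −0.47 and −0.29. The median of these factors was −0.050 after subtraction and 0.010 with the covariate. Regulators of ribosomal protein mRNA had a median of −0.16 over 14 genes, which was −0.048 after subtraction and 0.12 with the covariate.

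In that group of regulators the transcription factor MYC had a log2 fold change of 0.34, LARP1 one of −0.32 and MTOR one of −0.27, with overlapping groups. EIF4EBP1, a translation repressor that mTOR switches off, had −0.55 with groups apart and was chosen after its values were seen. Factors that detect or rescue stalled ribosomes had a median of −0.22 over 11 genes, with GCN1, ABCE1 and LTN1 at −0.40, −0.22 and −0.12, and one of −0.042 after subtraction and of 0.14 with the covariate. With the counts as deposited the cytosolic ribosomal protein genes had the lowest median of these lists, a rank that was not tested.

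**Figure D5:**
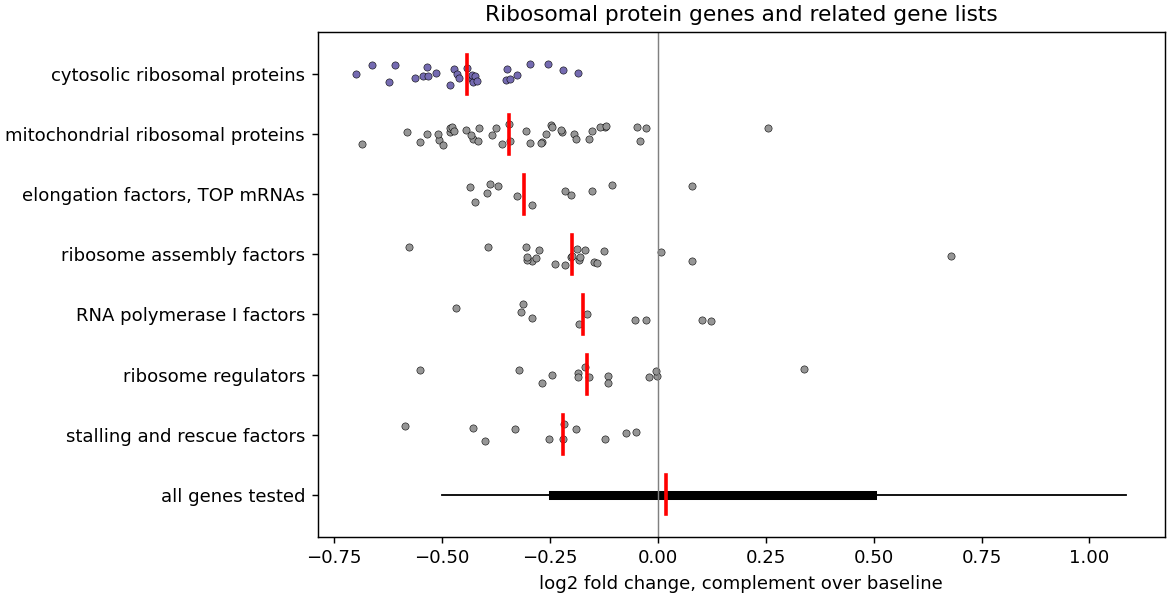
Log2 fold change of complement over baseline NPSC for the cytosolic ribosomal protein genes and 6 related lists, with 1 point per gene tested and a red line at each median, above all genes tested, where the thick bar spans the middle quartiles and the thin line the 5th to 95th percentile. The medians run from −0.44 for the cytosolic ribosomal proteins and −0.34 for the mitochondrial ones to −0.16 for the regulators, beside 0.02 for all genes.

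Markers of Sertoli cells and of other testis cells were followed in the same libraries. Summed over the 8 Sertoli cell markers matched, the level was 4999 to 7724 CPM on the baseline plates and 3270 to 3907 CPM on the complement plates, without overlap. The 8 genes had a median log2 fold change of −0.65, 5 of them had groups apart with complement NPSC lower, against 8.14% of all genes, 0 were called, and DHH alone lay above 0, at 0.63. The Sertoli median was −0.48 after subtraction and −0.55 with the covariate. The 5 Leydig cell markers matched summed to 999 to 1185 CPM in baseline and 746 to 789 CPM on the complement plates, also without overlap. Of these, 4 were tested, with a median of −0.52, which was −0.43 after subtraction and −0.55 with the covariate, and CYP11A1 had 0 counts in all libraries.

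Other cell types overlapped between the groups in their summed levels. Peritubular myoid markers, 6 of 6 matched with MYH11 at 0, summed to 2679 to 3991 CPM in baseline and 2048 to 3823 CPM on the complement plates. Germ cell markers, 4 of 6, summed to 234 to 374 and 172 to 321 CPM. Endothelial markers, 4 of 6, summed to 416 to 613 and 307 to 682 CPM. Macrophage markers, 4 of 6, summed to 61.6 to 97.4 and 46.7 to 68.1 CPM, and erythroid markers, 3 of 4, to 13.8 to 53.6 and 10.4 to 21.7 CPM. The medians of these lists were −0.17 for myoid, −0.32 for germ cell, −0.06 for endothelial, −0.54 for macrophage and 0.32 for erythroid markers, and 0 of their genes were called. After subtraction of background these medians were 0.072, −0.12, −0.053, −1.42 and −0.81 in the same order. The filter was run again on the reduced counts, so that genes of low count may be missing from medians after subtraction, here and in the lists above. With the covariate the medians were 0.28, −0.10, 0.31, −0.53 and −0.0042. Over these fits the medians of the myoid, endothelial and erythroid markers lay on either side of 0. The macrophage marker of lowest fold change, LYZ, which encodes lysozyme and was chosen after its values were seen, had 8.12, 4.18 and 14.5 CPM on the baseline plates and 2.67, 0.239 and 2.43 CPM on the complement plates. The groups were apart, at a log2 fold change of −2.28 (SE 0.59) and an adjusted p of 0.261 in edgeR's quasi-likelihood test. The part of cell makeup in the fold changes of the ribosomal protein genes was not tested.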

How the data were processed

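The authors deposited raw counts per gene, 1 value per gene and library, without normalization, with exon coordinates and the summed exon length. The submitters' processing notes name Trimmomatic 0.36, STAR 2.5.2b and featureCounts of Subread 1.5.2. The genome build, the strand setting and the treatment of reads that map to several genes are not given in the sources used here, so reads shared with processed pseudogenes, of which ribosomal protein genes have many, may have been lost or split. RNA was isolated and sequenced by a service, and the depth of the libraries was 3641518 to 8371923 counts on genes.

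Symbols came from a pig gene table that matched 11804 of the 25149 identifiers. Counts were tested in edgeR 4.0.16 (R 4.3.3) by the quasi-likelihood F-test of glmQLFTest, after the filter filterByExpr and scaling by TMM, complement against baseline NPSC over all 6 libraries without covariates, with Benjamini-Hochberg adjustment over 17512 genes and a threshold of 0.05. SE is the size of the log2 fold change divided by the root of F. A count of genes with groups apart uses CPM. The 27 genes, the comparison lists and the markers were chosen with earlier results of these data known. Genes were named by rule: any past the threshold, the 6 highest and 6 lowest log2 fold changes, the 6 highest and 6 lowest baseline levels per kb, paralog pairs of which both were counted (there were 0), genes with a known role of their own, and the 3 genes of each list with the most counts.

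Alternatives were DESeq2 size factors, upper-quartile scaling, library totals, TMM without the ribosomal protein genes or the 20 most counted genes, the Wald test of DESeq2 1.42.0, a replicate block, leaving out each library, a filter of 10 counts in every library, no filter beyond 1 count, subtraction of the expected background and the olfactory receptor density (48 genes, 45945 bp of exon) as a covariate. Leaving out complement replicates 1 and 2 together was added after the data were seen. The fits were run on simulated data, except background subtraction and the fit without complement replicates 1 and 2, and the outcome is not given here. No pair of libraries agreed within sampling noise. Plots used matplotlib 3.10.9 in Python 3.11.15. Promoter and protein sequences were not used here. The values of 3 of the 27 genes and of 1 listed gene are not reported here, though they stay in all counts, sums and medians.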

Additional observations from a re-analysis of the deposited data

How the results depend on the processing

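All 27 log2 fold changes lay below 0 in the fit of the counts as deposited, and 473 of 484 values did so over 18 alternatives. The number of genes past the threshold, 0, was 5 with the replicate block (RPLP1, RPS21, RPS16, RPLP2 and RPL38), where 3.68% of all genes were called lower, and 0 to 2 with a library left out, 2 without complement replicate 3, where 3.80% were. Deviations of same-numbered libraries correlated at 0.456, 0.030 and 0.482, so pairing of the plates by number was not shown, and replicates 1 and 3 of each group, but not replicate 2 of either, correlated best with their own number. The 9 genes lower at an unadjusted p under 0.05 (4.28% of all genes) became 5 with upper-quartile scaling (2.72%), 5 with library totals (2.22%), 14 with DESeq2 (4.42%), 16 with the replicate block (11.1%), 3 with background subtracted (3.56%), 3 with the covariate (2.48%), 1 without complement replicates 1 and 2 (1.35%), and 1 (without baseline replicate 3, 1.62%) to 19 (without complement replicate 3, 17.8%) with a library left out, with 17 (7.13%), 2 (2.11%) and 3 (2.15%) without baseline replicates 1 and 2 and complement replicate 1. The median, −0.44, was −0.15 with the covariate. The 5 genes with groups apart (8.14% of all genes) became 8 with library totals (5.33%) and 1 with background subtracted (8.30%). The number was 25 without baseline replicate 1 (20.3%) and 16 without complement replicate 3 (27.1%). It was 6 or 7 without any other single library, where 9.93% to 11.3% of all genes were apart and lower. The log2 ratio of the sums, −0.45, was −0.18 with background subtracted. The block and the covariate give no other sum or overlap. Upper-quartile scaling and library totals moved the median of all genes to 0.13 and 0.19, and relative to it the ribosomal protein genes stood at −0.45 in both, against −0.46. Single genes turned above 0 with the covariate (RPS23 0.010, RPL27 0.016, RPL26L1 0.033, RPS3A 0.14, RPL7L1 0.17, RPL4 0.0065), with background subtracted (RPS3A 0.025), without complement replicates 1 and 2 (RPL7L1 0.048), with library totals (RPL10L 0.042) and with a library left out (RPL10L, −0.43 to 0.26). The cause was not tested. RPL10L was not tested at 10 counts in every library or after subtraction. The search of promoter sequences was not run. Depth limits RPL10L, with 6 to 23 counts per library.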
